A study of Mus musculus with 17 samples.

Results

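The stretch of mouse chromosome 11 that lies upstream of the α-globin topologically associating domain (TAD) was examined from 31.15 Mb to the start of the TAD at 32.08 Mb (mm9), a length of 930 kb. Its members were all DpnII restriction fragments with a midpoint in this interval, chosen by position alone, which gave 2289 of the 295448 fragments of the chromosome, 38 bins (25 kb each, apart from a 5 kb remainder at the far end) and 8 of 2953 annotated genes. In all, 2029 of the 2289 fragments held an interaction with an α-globin viewpoint in some library, and the region took 41275 interactions in the Ter119+ capture and 42197 in the CD71+ capture. The measurement was NG Capture-C, in which chromatin of fixed cells is cut with DpnII, ends that lie close together are ligated, and oligonucleotide probes then pull down whatever was joined to certain chosen fragments, called viewpoints, for sequencing. The study asked what limits the reach of the α-globin enhancers and promoters, by deleting CTCF sites and by placing α-globin sequence between the enhancers and the genes.

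The 17 libraries fell into 5 groups. The Ter119+ capture held primary erythroid cells from the spleens of adult C57BL/6J mice made anaemic with phenylhydrazine, either wild-type (WT, n = 3) or QuadDel (genotype Dt1t24448, n = 3), homozygous for loss of the CTCF sites HS+44, HS+48, θ1 and θ2, which all lie downstream of the enhancers. By the study's account, the stretch between HS+44 and HS+48 was deleted together with these sites in QuadDel. The CD71+ capture held erythroid cells taken from embryoid bodies grown from E14TG2a mouse embryonic stem cells, which resemble primitive erythroblasts. All of these cells carried the α-globin locus on a single allele, with the other deleted, and a yellow fluorescent tag on Hba-a1. They had no insert (WT aYFP, n = 3), the α-globin promoter inserted between enhancers and genes (aPonly, n = 4) or promoter and gene inserted there (aP+G, n = 4). The phenylhydrazine treatment was shared by both Ter119+ groups, and the tag and the hemizygous locus by all 3 CD71+ groups. The labels do not say which mice or cultures the numbered libraries came from, so the p-values measure the spread between these libraries, and interaction counts offer no marker genes by which to check the cell types.

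A TAD is a stretch of chromosome whose sequences meet each other more often than they meet sequences outside it, and CTCF, a DNA-binding protein that halts loop extrusion by cohesin, occupies many of the borders. At the α-globin locus a cluster of erythroid enhancers, of which R1 and R2 are members, acts on the Hba genes, which encode the α chain of haemoglobin, and CTCF sites named HS-38 and HS-39 stand at the upstream edge of the contact domain. The interval described here lies outside that edge, on the far side from the globin genes. An interaction counted here from the enhancers or the genes had thus crossed the edge. The viewpoints HS39 and HS38 stand on the edge, which lies within the TAD, 57.2 and 58.1 kb from the interval.

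The 5 protein-coding genes of the region, in order from the far end towards the TAD, were Stc2 (mm9, chr11:31257307-31270074, minus strand), Bod1 (chr11:31565181-31571919, minus), Cpeb4 (chr11:31772211-31835634, plus), 4930524B15Rik (chr11:31865592-31879651, plus) and Nsg2 (chr11:31900463-31959202, plus). Stc2 encodes the secreted glycoprotein stanniocalcin 2, Bod1 a protein needed for chromosomes to attach to both spindle poles, Cpeb4 an RNA-binding protein that controls translation and takes part in terminal erythroid differentiation, and Nsg2 a neuronal endosomal protein. The 3 other genes were annotated as processed transcripts, without a coding sequence: D630024D03Rik (chr11:31690113-31724524), Gm12107 (chr11:31732660-31738214) and Gm12108 (chr11:31995261-32001228). All 8 had at least 1 promoter entry in RefSeq (GRCm38.p6), and each of the 10 entries matched the mm9 sequence once.

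Promoter sequence is shown for the genes at or beside the places where the profile stood out, Bod1, Gm12107 and Cpeb4, and for Nsg2, over which it was low. Each runs 5′ to 3′ along the gene's own strand from 250 bases before to 50 bases after the start, and capitals mark every CG and every GATA-factor motif, AGATAA on either strand.
Bod1 promoter (chr11:31571813-31572112, minus strand): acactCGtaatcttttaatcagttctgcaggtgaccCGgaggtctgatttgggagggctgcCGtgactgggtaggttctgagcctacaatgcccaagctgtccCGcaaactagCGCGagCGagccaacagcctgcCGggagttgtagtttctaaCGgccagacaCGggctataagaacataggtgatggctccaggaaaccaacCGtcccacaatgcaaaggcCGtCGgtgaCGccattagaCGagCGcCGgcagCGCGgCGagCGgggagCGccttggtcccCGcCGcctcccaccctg
Gm12107 promoter, first of 2 entries (chr11:31731546-31731845, plus strand): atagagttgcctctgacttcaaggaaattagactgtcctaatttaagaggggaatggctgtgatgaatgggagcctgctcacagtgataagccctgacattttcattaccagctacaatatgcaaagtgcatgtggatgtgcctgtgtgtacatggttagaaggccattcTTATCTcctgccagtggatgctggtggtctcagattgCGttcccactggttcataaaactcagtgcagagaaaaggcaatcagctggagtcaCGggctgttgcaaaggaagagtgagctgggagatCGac
Cpeb4 promoter (chr11:31770690-31770989, plus strand): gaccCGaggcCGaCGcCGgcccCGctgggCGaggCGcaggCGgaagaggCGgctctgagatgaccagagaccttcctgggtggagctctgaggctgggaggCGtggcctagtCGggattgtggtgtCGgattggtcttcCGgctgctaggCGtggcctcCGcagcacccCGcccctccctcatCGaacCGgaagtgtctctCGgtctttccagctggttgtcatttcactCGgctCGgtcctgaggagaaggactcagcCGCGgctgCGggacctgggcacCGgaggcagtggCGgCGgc
Nsg2 promoter, first of 2 entries (chr11:31900169-31900468, plus strand): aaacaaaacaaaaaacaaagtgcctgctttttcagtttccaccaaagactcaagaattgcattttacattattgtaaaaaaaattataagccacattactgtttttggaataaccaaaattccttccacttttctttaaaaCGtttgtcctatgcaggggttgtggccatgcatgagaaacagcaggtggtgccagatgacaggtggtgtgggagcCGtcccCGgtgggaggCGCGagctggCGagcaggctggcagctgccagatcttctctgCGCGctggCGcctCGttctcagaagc
The Bod1 and Cpeb4 windows held 24 and 27 CG, against a median of 7 over the 32851 promoters of the table. The Nsg2 and Gm12107 windows held 10 and 3. AGATAA stood in 1 of the 10 upstream entries, that of Gm12107 shown, and in 11.2% of all promoters. CG and AGATAA cannot overlap, and a match in these windows is a description of letters only.

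Total interactions per library were 287635 to 377415 in QuadDel, 333560 to 379336 in WT, 140451 to 147465 in aP+G, 82509 to 170890 in aPonly and 111059 to 196977 in WT aYFP. Values below are interactions per 100,000 cis interactions, that is, interactions of the same viewpoint with chromosome 11 outside the zone around the viewpoint. The cis total of a viewpoint was 13619 to 33690 in the Ter119+ capture and 6123 to 21735 in the CD71+ capture, and the upstream region held 786 to 1738 and 594 to 2062 of these. Of 2289 fragments, 83.4% were seen in the Ter119+ capture and 78.6% in the CD71+ capture, so single fragments held few interactions and sums over bins and genes carry the results. The viewpoints were HS39, HS38, the enhancers R1 and R2, and Hba-1 and Hba-2 (on Hba-a1 and Hba-a2 in that order) in the Ter119+ capture, at 57.2, 58.1, 65.3, 71.1, 103.0 and 115.8 kb from the region, and HS38, R1 and R2 in the CD71+ capture. HS38 and HS39 are named as deposited, and the pair of names looks exchanged against the sites named in the study. The captures differed in cells and in the width of the zone left out, so their values are given side by side and were not compared by a test.

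On this cis total, the viewpoint HS38 at the edge of the domain took the most interactions with the upstream region within each library and the globin genes the fewest, but part of this order depended on the total used. The order of the means also followed distance from the region, apart from HS39, the nearest at 57.2 kb. The part of distance in the order was not tested. In the Ter119+ capture the region took 7627 interactions per 100,000 from HS38, 6201 from HS39, 6027 from R1, 5105 from R2, 3961 from Hba-1 and 3932 from Hba-2 (means of 6 libraries). From HS38 the values were 6788, 7399 and 7203 in QuadDel and 7753, 8459 and 8157 in WT, and from Hba-1 they were 3699, 3826 and 3901 in QuadDel and 3676, 4344 and 4322 in WT. HS38 was thus the higher of this pair in each of the 6 libraries. Of the 15 pairs of viewpoints, 13 differed in the same direction in 6 of 6 libraries (exact two-sided sign-flip permutation test within libraries, adjusted p = 0.0361, raw p = 0.03125, the smallest that 6 libraries allow). The neighbours in this order that did not differ beyond their spread were HS39 and R1 (mean difference 174 ± 315 SD, higher from HS39 in 4 of 6, exact p = 0.25) and Hba-1 and Hba-2 (29.0 ± 91.3, exact p = 0.53). Of 3 other totals compared after the data were seen, the cis total without the downstream window gave 13 such pairs again, and the other two did not. As a share of the cis total outside the TAD, 11 of the 15 pairs differed one way in 6 of 6 libraries. HS39 then stood above HS38 in all 3 QuadDel libraries and below it in all 3 WT libraries (exact p = 0.781), and R2 and Hba-1 did not differ beyond their spread (mean difference -5.47 per 100,000, exact p = 1). With fragments that only partly overlap the exclusion zone counted in the total, HS38 was still the highest in 6 of 6 libraries but HS39 the lowest in 6 of 6, and 9 pairs differed one way in every library (0 with an adjusted p under 0.05). Hba-1 and Hba-2 are not separate measurements, since 69.2% to 73.8% of the upstream fragments seen from either were seen from both, against 28.1% to 52.4% for the other Ter119+ pairs, and 33.7% to 38.5% had the same count from both, more than in any library of the other pairs.

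In the CD71+ capture the order was the same among the viewpoints it shares. The region took 12164 interactions per 100,000 from HS38 (11388 to 13816 in 11 libraries, median 12089), 9642 from R1 (8564 to 10709, median 9701) and 8401 from R2 (7252 to 9461, median 8312). The 3 ranges overlapped only between R1 and R2, and within each of the 11 libraries HS38 stood above R1 and R1 above R2 (exact sign-flip permutation test, adjusted p = 0.000977, the smallest that 11 libraries allow), on each of the 3 other totals as well. The shares of the cis total were 7.25% to 13.8% in this capture and 3.64% to 8.46% in the Ter119+ capture.

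**Figure D1:**
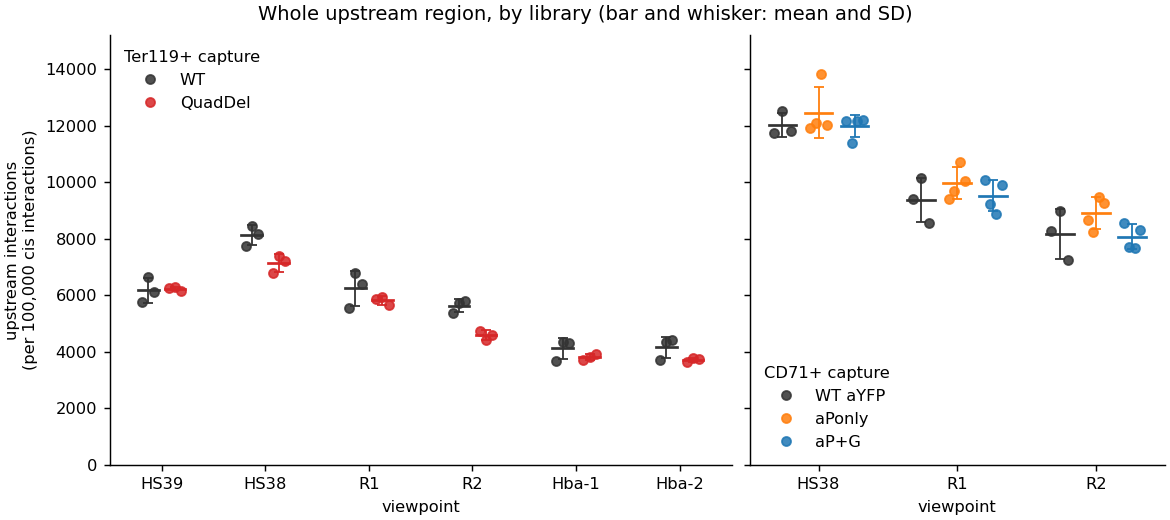
Interactions of the whole upstream region per 100,000 cis interactions of the viewpoint, 1 point for each library, with the mean and SD of each group. HS38 is the highest viewpoint in both captures on this total (not in QuadDel as a share of the cis total outside the TAD), the CD71+ groups overlap from each viewpoint, and QuadDel lies wholly below WT from HS38 and R2.

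The interactions were not spread evenly over the region. They were high next to the TAD, low over Nsg2, high again from Cpeb4 back to Bod1, and low beyond Bod1. In the Ter119+ capture the bin with the most interactions was the one next to the TAD from HS38 and HS39, and the one from 31.73 Mb from R1, R2, Hba-1 and Hba-2. In the Ter119+ capture the stretch between Nsg2 and the TAD held 18.3% (R2) to 38.7% (HS39) of the region's interactions, and the stretch between Bod1 and Cpeb4, 200.0 kb of fragments, held 30.6% (HS39) to 47.5% (R2). In the CD71+ capture the second share was 30.4% from HS38, 40.8% from R1 and 43.4% from R2. Per kb of fragments, the stretch between Bod1 and Cpeb4 stood above the body of Nsg2, which lies nearer to the viewpoints, by 2.28-fold from HS39, 2.42-fold from HS38, 4.58-fold from R1, 4.02-fold from R2 and 3.80-fold from Hba-1, and above it in 6 of 6 libraries from each. It stood above the stretch between Stc2 and Bod1 by 6.50-fold to 10.8-fold, again in 6 of 6 libraries.

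**Figure D2:**
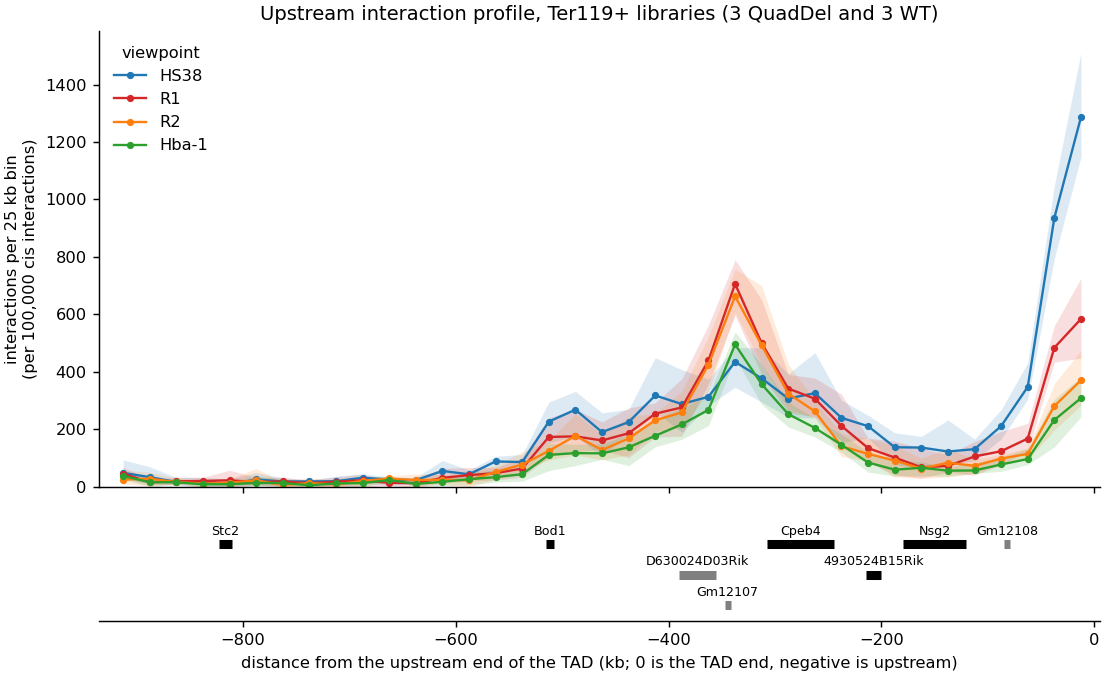
Ter119+ capture: interactions per 25 kb bin and 100,000 cis interactions against distance of the bin's centre from the start of the TAD in kb, for HS38, R1, R2 and Hba-1, with the mean of 6 libraries as a line with points, the lowest and highest library as a band, and the genes as bars (black, protein-coding). From R1, R2 and Hba-1 the mean is highest in the bin that begins 350 kb from the TAD, and from HS38 in the bin next to the TAD.

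A single bin, from 31.73 Mb, formed a local peak from most of the enhancer and gene viewpoints. It holds Gm12107, begins 350 kb from the TAD, and exceeded both neighbouring bins in every library from R1, Hba-1 and Hba-2 in the Ter119+ capture and from R1 and R2 in the CD71+ capture. From R1 it held 597, 639 and 713 interactions per 100,000 in QuadDel and 753, 745 and 791 in WT, with a mean of 470 over its neighbours. From R2 in the Ter119+ capture the bin did not exceed both neighbours in every library. From R2 it held 632, 607 and 619 in QuadDel and 710, 758 and 654 in WT, and from HS38 347, 462 and 486 in QuadDel and 383, 483 and 451 in WT. Each library thus had fewer interactions with this bin from HS38 than from R1 or R2, although HS38 took more over the region as a whole. In the CD71+ capture the bin held 906 to 1596 from R1 (median 1075), 895 to 1316 from R2 (median 971) and 627 to 958 from HS38 (median 694), with neighbours at 717 from R1 and 623 from R2. Among single fragments, 2 of the 10 with the most interactions in the Ter119+ capture lay in Gm12107, chr11:31735278-31736367 with 138 interactions over all libraries and viewpoints and chr11:31732352-31733180 with 129. In the CD71+ capture the fragments of this bin among the top 10 lay outside the genes as annotated here. These were chr11:31743741-31744152 with 154 interactions and chr11:31731841-31732351 with 137.

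The difference between viewpoints was tested bin by bin within libraries, with the library as a block and as a contrast chosen after the data were seen (edgeR quasi-likelihood test, Benjamini-Hochberg adjustment over all bins of the chromosome tested). From R2 against HS38 in the Ter119+ capture, 3 of 29 upstream bins were higher and 13 lower, beside 5.75% and 10.6% of all bins tested. The 3 higher were adjacent, from 31.705, 31.73 and 31.755 Mb, and the largest difference was at 31.73 Mb (log2 0.61, SE 0.12, adjusted p = 5.06e-06). The bin next to the TAD, from 32.055 Mb, was lower from R2 (371 against 1286, log2 -1.80, SE 0.11, adjusted p = 2.67e-53). From R1 against HS38, 2 of 27 were higher (background 1.85%), from 31.73 Mb (log2 0.70) and 31.705 Mb (log2 0.49), and 6 were lower (7.08%). From Hba-1 against HS38, 0 of 29 were higher (1.16%) and 19 were lower (17.4%), and the bin from 31.73 Mb differed by log2 0.19 (SE 0.13, adjusted p = 0.282). That last value depended on the library size, since it was 0.63 with TMM factors (adjusted p = 5.32e-06) and 0.74 on the cis total outside the TAD (adjusted p = 2.55e-08).

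The same contrasts in the CD71+ capture gave 2 of 33 bins higher from R2 than from HS38 (background 9.09%) and 19 lower (38.6%), and 2 of 31 higher from R1 than from HS38 (5.66%) and 11 lower (21.7%). The bins higher from R1 and R2 began at 31.73 Mb (log2 0.61 from R1, 0.56 from R2) and 31.755 Mb (log2 0.56 and 0.40). The bin from 31.755 Mb holds the promoter and 5′ end of Cpeb4. In each contrast the lower bins were a larger share of the upstream bins than of all bins tested, whereas the higher bins numbered at most 3 in a contrast, too few to read against their background. The direction at 31.73 Mb held with TMM factors and on the cis total outside the TAD for each of these contrasts.

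**Figure D3:**
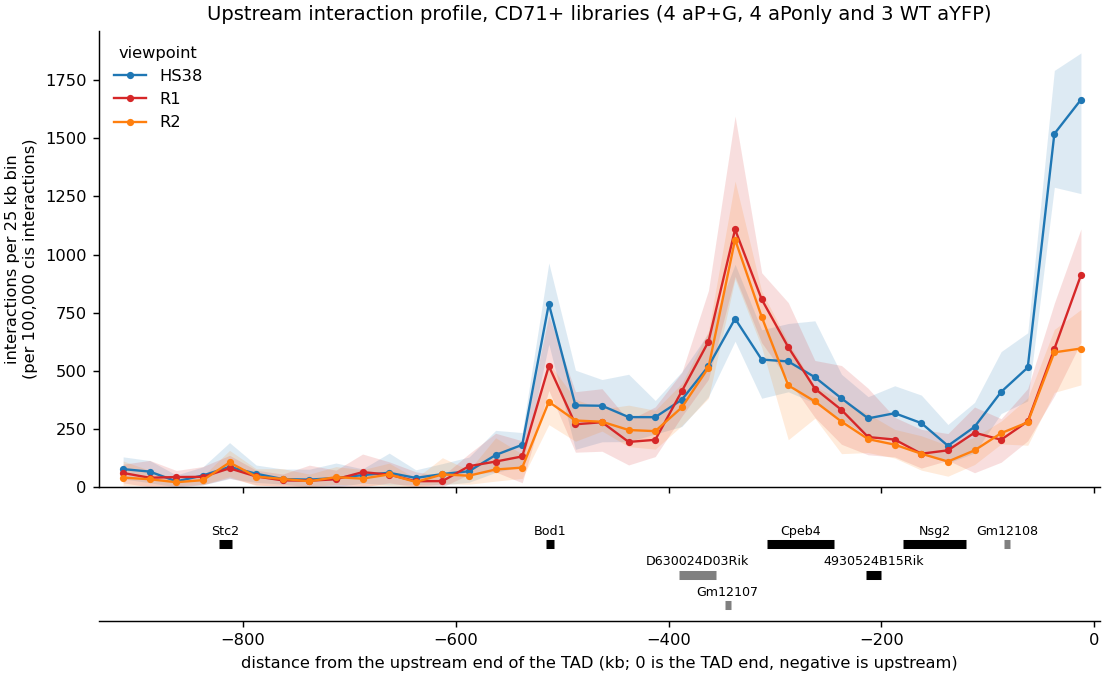
CD71+ capture: interactions per 25 kb bin and 100,000 cis interactions against distance of the bin's centre from the start of the TAD in kb, for HS38, R1 and R2, with the mean of 11 libraries as a line with points, the lowest and highest library as a band, and the genes as bars (black, protein-coding). From HS38 the bin with Bod1, which begins 525 kb from the TAD, reaches 788 against 266 in its neighbours, and from R1 and R2 the bin that begins at 350 kb is the local peak.

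The bin that holds Bod1, from 31.555 Mb, formed another local peak, seen from HS38 and R1 in the CD71+ capture. It exceeded both neighbours in all 11 libraries from these viewpoints. From HS38 it held 614 to 964 interactions per 100,000 (median 791) against a neighbour mean of 266, and from R1 415 to 738 (median 467) against 201. From R2 it held 268 to 535 (median 333), and it was lower from R2 than from HS38 (366 against 788, log2 -1.10, SE 0.11, adjusted p = 5.11e-22) and lower from R1 than from HS38 (log2 -0.60, adjusted p = 1.27e-05, edgeR quasi-likelihood test). From HS38 all 11 libraries lay above every library from R2. In the Ter119+ capture the bin held 153, 212 and 295 in QuadDel and 226, 244 and 235 in WT from HS38 and 107, 162 and 93.5 in QuadDel and 150, 144 and 96.7 in WT from R2, again lower from R2 (log2 -0.84, adjusted p = 1.43e-04), and it did not exceed both neighbours in every library there.

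A short fragment beside the Bod1 start ranked high. It lies between genes, just beyond the promoter shown above, and was the eighth by interactions of all upstream fragments in the CD71+ capture, with 135 over all libraries and viewpoints in 239 bases. The fragment lies in this peak, but it was picked as the shortest of the 10 upstream fragments with the most interactions in that capture. Its mm9 sequence is read on the plus strand with every CG in capitals.
DpnII fragment beside Bod1 (chr11:31572375-31572613): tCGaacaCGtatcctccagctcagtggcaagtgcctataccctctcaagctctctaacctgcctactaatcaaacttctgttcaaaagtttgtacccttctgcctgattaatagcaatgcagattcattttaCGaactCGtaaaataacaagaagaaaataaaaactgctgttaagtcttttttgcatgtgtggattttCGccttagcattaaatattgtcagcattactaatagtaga
The fragment held 5 CG and no AGATAA.

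Among the protein-coding genes, Cpeb4 had the most interactions per kb and Stc2 the fewest in the WT Ter119+ libraries, with means over the 6 viewpoints of 11.2 interactions per 100,000 and kb for Cpeb4, 5.10 for Bod1, 4.58 for 4930524B15Rik, 3.61 for Nsg2 and 0.492 for Stc2. From R2, the body of Cpeb4 took 791, 814 and 812 interactions per 100,000 in QuadDel and 755, 762 and 952 in WT. Nsg2 took 77.3, 139 and 187 in QuadDel and 172, 235 and 251 in WT from the same viewpoint. The bodies cover 62.7 and 58.6 kb of fragments, and Cpeb4, the farther of them, was higher per kb in 6 of 6 libraries from every viewpoint, by 2.55-fold (HS39) to 4.97-fold (R1). From HS38 the values for Cpeb4 were 879, 930 and 748 in QuadDel and 760, 849 and 774 in WT, and for Nsg2 they were 319, 221 and 282 in QuadDel and 295, 377 and 253 in WT. QuadDel and WT overlapped for both genes from both viewpoints.

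Bod1, with 7.02 kb of fragments, took 13.9, 19.7 and 52.5 interactions per 100,000 in QuadDel and 87.9, 55.5 and 56.3 in WT from HS38, where the groups did not overlap (1 to 15 interactions counted in any library and viewpoint), and the difference did not pass the test (log2 -1.27, SE 0.53, edgeR adjusted p = 0.382). From R2 it took 12.9, 4.5 and 11.7 in QuadDel and 33.3, 38.4 and 30.9 in WT, again without overlap, at counts of 1 to 8. Its mean count from R2 was under the 5 needed for the test. The fitted log2 differences of Bod1 from the other viewpoints were 0.45 (HS39), -0.00063 (R1), -0.25 (Hba-1) and -0.42 (Hba-2). How many other genes of the chromosome had groups without overlap was not counted. The gene 4930524B15Rik, whose product has no role given here, took 60.2, 80.9 and 58.4 in QuadDel and 72.1, 67.1 and 42.6 in WT from R2, and the groups overlapped. Stc2, secreted stanniocalcin 2 and the farthest gene, held 0 to 6 interactions in any Ter119+ library and viewpoint. From HS38 it held 0 in all 3 QuadDel libraries, and a count of 0 allows up to 3 interactions in a library.

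In the CD71+ capture the body of Cpeb4 took 1003 to 1521 interactions per 100,000 from HS38, 1054 to 1532 from R1 and 851 to 1433 from R2, and Nsg2 took 292 to 697, 245 to 399 and 191 to 372. Bod1 took 146 to 307 from HS38 (median 208), 72.2 to 229 from R1 (median 159) and 27.7 to 162 from R2 (median 44.0). Per kb, Bod1 stood at 30.1 from HS38, 21.8 from R1 and 8.39 from R2, which was 9.08-fold the stretch between Stc2 and Bod1 from HS38. The Ter119+ values beside these were 6.78, 5.12 and 3.12. Stc2 stood at 4.76, 4.28 and 5.50 per kb (9.0 to 147 interactions per 100,000 from HS38), beside 0.440, 0.529 and 0.575 in the Ter119+ capture. From R2 the gene 4930524B15Rik took 32.4 to 201, with a median of 88.5.

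**Figure D4:**
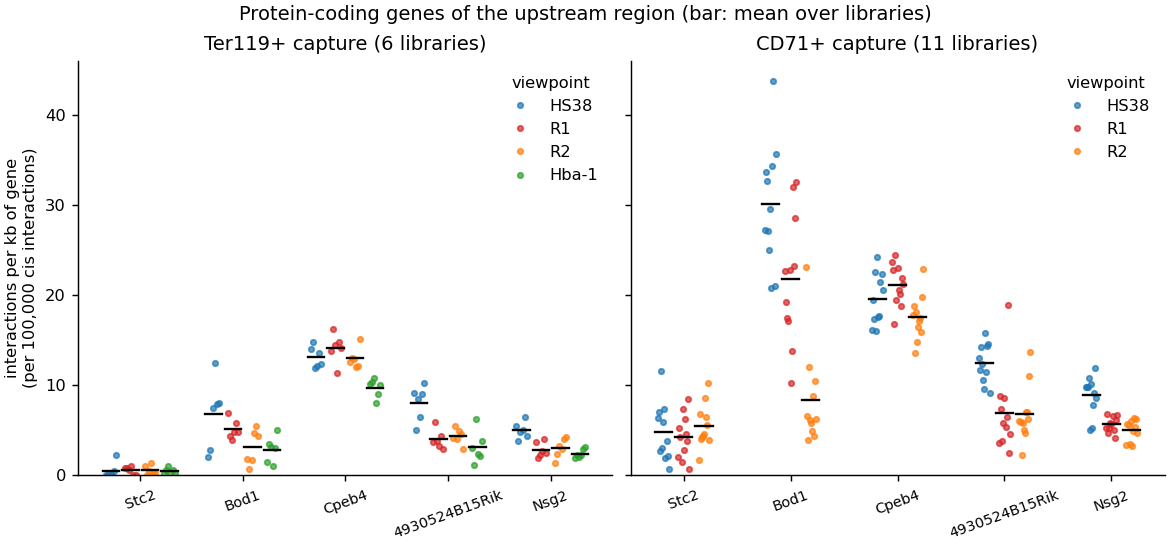
Interactions per 100,000 cis interactions and kb of fragments over the 5 protein-coding genes in both captures, with 1 point for each library, coloured by viewpoint, a bar at the mean over the libraries of a capture, and an axis that starts at 0. The mean of Cpeb4 stands above that of Nsg2 from each viewpoint, Stc2 is near 0 in the Ter119+ capture, and Bod1 has the highest mean from HS38 in the CD71+ capture.

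The QuadDel comparison asked whether deletion of CTCF sites downstream of the enhancers, among and beyond the globin genes, alters contacts on the opposite, upstream side. The whole region was lower in QuadDel from R2, to 0.815-fold, and the other viewpoints did not pass the test. Which viewpoints passed depended on the total: on the cis total outside the TAD HS38 (log2 -0.31, adjusted p = 0.00674), Hba-1 (-0.31, 0.0241) and Hba-2 (-0.36, 0.00288) were called and R2 was not, and the differences from these 4 viewpoints were below 0 on both totals. From R2 it took 4748, 4421 and 4592 interactions per 100,000 in QuadDel (mean 4587 ± 164 SD) and 5365, 5721 and 5783 in WT (5623 ± 225). The groups did not overlap, and the log2 difference was -0.29 (SE 0.065, 95% interval -0.42 to -0.17, edgeR quasi-likelihood adjusted p = 0.00622). The exact permutation p of the scaled sums was 0.1, the smallest that 3 against 3 allows. The call was lost with TMM factors (log2 -0.20, adjusted p = 0.52), with DESeq2 size factors (-0.23, 0.445), on the cis total outside the TAD (-0.28, 0.0575), when fragments reaching past the exclusion zone were kept (-0.21, 0.342) and without QuadDel replicate 1 (adjusted p = 0.236), QuadDel replicate 2 (0.124), WT replicate 2 (0.115) or WT replicate 3 (0.21), with the direction the same in each.

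From HS38, at the domain edge, the values given above did not overlap either (7130 ± 312 in QuadDel, 8123 ± 354 in WT), and the log2 difference of -0.19 (95% interval -0.30 to -0.084) had an edgeR adjusted p of 0.105. From R1 the region took 5881, 5937 and 5636 in QuadDel and 5537, 6772 and 6402 in WT (log2 -0.10, interval -0.25 to 0.048). From HS39 it took 6240, 6279 and 6161 in QuadDel and 5769, 6655 and 6105 in WT (log2 0.012, interval -0.14 to 0.16). These groups overlapped, and those from Hba-1 (log2 -0.11) and Hba-2 (log2 -0.16, interval -0.32 to -0.0070, adjusted p = 0.527) did too. Among the 6 viewpoints 1 was called, beside 0.275% of 727 tiles of the same length over the chromosome and all viewpoints. The sign from HS39 turned on the cis total outside the TAD (-0.15), and that from R1 when fragments reaching past the exclusion zone were kept (0.083).

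The cis total to which these values are scaled was made up differently in the 2 groups. The region downstream of the TAD, up to 33.15 Mb, took more of the cis total in QuadDel. From R2 it held 4957 per 100,000 in QuadDel and 2542 in WT, and from HS38 11118 and 4771. The TAD held 60219 in QuadDel and 59729 in WT from R2, and 52353 and 56260 from HS38. With the downstream window taken out of the cis total, an alternative chosen after the data were seen, the upstream difference from R2 was -0.26 (adjusted p = 0.0133) and that from HS38 -0.090 (adjusted p = 0.653). The part of the downstream rise in the upstream values was not tested further.

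The ratio of upstream to downstream interactions does not depend on the cis total and separated the groups from every viewpoint. From R2 the log2 ratio was -0.087, -0.20 and -0.047 in QuadDel and 1.17, 1.20 and 1.08 in WT. From HS38 it was -0.70, -0.53 and -0.69 in QuadDel and 0.75, 0.85 and 0.70 in WT. WT libraries thus had more interactions upstream than downstream, and QuadDel libraries more downstream. The differences ran from -1.24 (R1) to -1.41 (HS38), and the groups did not overlap from 6 of 6 viewpoints (exact permutation p = 0.1 each, the smallest possible, and 0.1 after adjustment). The viewpoints share their libraries, so these are not separate tests. Over all alternatives the difference stayed between -1.48 and -1.17. As the levels above show, the downstream side made the larger part of this difference.

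**Figure D5:**
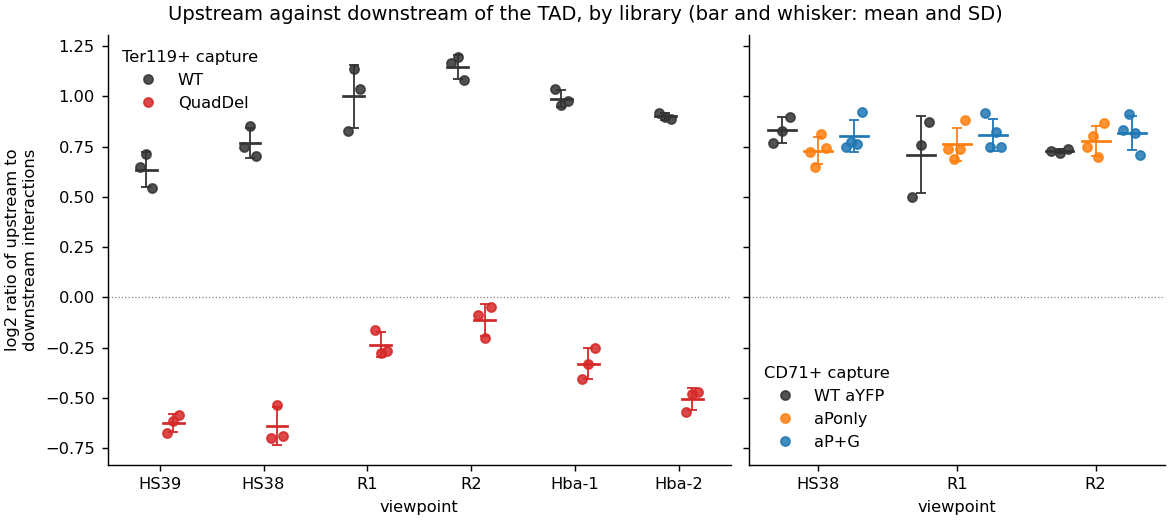
Log2 ratio of interactions upstream of the TAD (930 kb) to those downstream of it (905 kb), 1 point for each library with group means and SD, by viewpoint. The WT libraries lie above 0 and the QuadDel libraries below 0 from all 6 viewpoints, and the 3 CD71+ groups lie together above 0.

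Within the region, the called differences between QuadDel and WT lay next to the TAD. Of 169 combinations of bin and viewpoint tested, 2 passed the test and both were lower in QuadDel, beside 5.33% of all bins of the chromosome. Both were the bin next to the TAD. From Hba-2 it took 283, 244 and 266 interactions per 100,000 in QuadDel and 380, 485 and 434 in WT (log2 -0.71, SE 0.16, adjusted p = 1.72e-04). From R1 it took 476, 448 and 499 in QuadDel and 726, 645 and 713 in WT (log2 -0.55, SE 0.15, adjusted p = 0.0408). The groups did not overlap in either case, and the call from Hba-2 held without any single library. The call from R1 was lost without any single library (adjusted p 0.0665 to 0.182), with the DESeq2 Wald test (0.0970), on the cis total without the downstream window (0.0799), when fragments reaching past the exclusion zone were kept (log2 -0.36, 0.385), without the highest fragment (0.0865) and at a mean count of at least 1 (0.205).

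From Hba-1, which shares many interactions with Hba-2, the same bin took 244, 252 and 275 in QuadDel and 333, 383 and 368 in WT (log2 -0.50, adjusted p = 0.0896), and it was called with TMM factors (-0.67, 0.00175), DESeq2 size factors (-0.62, 0.00582), the cis total outside the TAD (-0.69, 0.000848) and a mean count of at least 20 (-0.50, 0.0153). From HS39 and HS38, at the edge of the contact domain within the TAD, the bin differed by log2 0.071 and -0.18. The groups overlapped from HS39 (1019, 1071 and 1197 in QuadDel, 952, 1068 and 1098 in WT) but not from HS38 (1207, 1254 and 1148 in QuadDel, 1337, 1510 and 1263 in WT). The sign from HS39 turned with TMM factors (-0.000428) and on the cis total outside the TAD (-0.083). Over the region, 123 of the 169 fitted differences were below 0 with a median of log2 -0.18, against a median of 0.057 over all bins, and 17 had an unadjusted edgeR p under 0.05 (15 lower, 2 higher). These differences share libraries and are not independent.

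No gene or single fragment passed the test between QuadDel and WT. Of 41 combinations of gene and viewpoint 0 were called (edgeR; 5 with an unadjusted p under 0.05; DESeq2 0), beside 2.42% of all genes of the chromosome, and the smallest adjusted p was 0.0658, for D630024D03Rik from R2 (log2 -0.46, SE 0.15). Its level was 446 ± 35.6 in QuadDel against 611 ± 59.3 in WT (SD over 3 libraries). Nsg2 from R2 had the next smallest p (log2 -0.74, SE 0.28, adjusted p = 0.168), and Cpeb4 was the one gene fitted higher among these 5, from Hba-2 (log2 0.23, SE 0.11, adjusted p = 0.427). Of 37 fragments tested 0 were called (edgeR; 1 with an unadjusted p under 0.05; DESeq2 0), beside 5.17%. A fragment needed a mean count of at least 5 to be tested, so nearly all of the 2289 were not.

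The CD71+ comparisons asked whether sequence inserted between enhancers and genes alters contacts outside the domain, and they share their libraries, so they are not independent. No viewpoint was called for the whole region in any of them (0 of 3 each, beside 0% of 323 tiles). From R2 it took 8271, 8990 and 7252 interactions per 100,000 in WT aYFP, 8672, 8237, 9461 and 9278 in aPonly and 8561, 7706, 7674 and 8312 in aP+G. The groups overlapped. The log2 difference from R2 was -0.019 for aP+G against WT aYFP (95% interval -0.14 to 0.098), 0.13 for aPonly against WT aYFP (0.010 to 0.24, edgeR adjusted p = 0.708) and -0.15 for aP+G against aPonly (-0.25 to -0.038, adjusted p = 0.388, exact permutation p = 0.0857). From HS38 and R1 the differences ran from -0.068 to 0.092, with intervals within -0.18 and 0.21.

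From HS38 the region took 11749, 12519 and 11794 in WT aYFP, 11917, 12089, 13816 and 12010 in aPonly and 12167, 11388, 12155 and 12197 in aP+G. From R1 it took 9399, 10141 and 8564 in WT aYFP, 9395, 9701, 10709 and 10057 in aPonly and 10075, 9240, 8882 and 9897 in aP+G. The groups overlapped from both viewpoints, and the upstream to downstream log2 ratios, 0.50 to 0.92 over all libraries and viewpoints, overlapped between each pair of groups. The signs for aP+G against WT aYFP from HS38 and R2 turned with TMM factors, and no direction is drawn from them.

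No upstream bin was called in the CD71+ comparisons. Of 95 combinations of bin and viewpoint, 0 passed in each (edgeR, beside 0% of 403), and 9 (aP+G against WT aYFP), 4 (aPonly against WT aYFP) and 4 (aP+G against aPonly) had an unadjusted p under 0.05, with 0 by DESeq2 in each. Of 24 combinations of gene and viewpoint, 0 passed in each, beside 0.587%, 0% and 0.293% of all genes, and 0, 2 and 3 had an unadjusted p under 0.05, with 0 by DESeq2. Of 32 fragments, 0 passed, beside 0.115%, 0% and 0.115%, and 2, 4 and 2 had an unadjusted p under 0.05, with 0 by DESeq2. The smallest adjusted p of a gene was 0.148, for Stc2 from HS38, at 147, 39.0, 74.8 and 94.5 in aP+G and 24.1, 48.6, 26.8 and 8.96 in aPonly, where the groups overlapped (log2 1.81, SE 0.56, 1 to 17 interactions a library).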

How the data were processed

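NG Capture-C libraries of Ter119+ and CD71+ erythroid cells were trimmed with Trim Galore, split at DpnII sites and aligned by the authors with Bowtie. The reference was mm9, or for CD71+ cells mm9 or a custom version of it. Tool versions are those named in the study. The authors deposited, for each viewpoint, the raw count of unique interactions of each DpnII fragment, not normalised. Fragments overlapping the deposited exclusion zone were left out (the viewpoint fragment in the Ter119+ list, 1000 bp more on each side in the CD71+ list), as was the viewpoint that combines the Hba genes. This also removed fragments that reach past the zone, whose share in the Ter119+ capture differed by viewpoint and group. In WT replicate 1 the cis total was 15236 without and 34456 with them from HS39, and 26470 and 29548 from Hba-1. From R1 it was 14738 and 30494 in WT replicate 1, and 20593 and 33536 in QuadDel replicate 1. Counts were summed by fragment midpoint over 25 kb bins, genes (GENCODE vM1), fragments and 930 kb tiles of chromosome 11, and units whose mean count reached 5 entered edgeR 4.0.16 (quasi-likelihood test, R 4.3.3), with the cis total outside the zone as library size and Benjamini-Hochberg adjustment over all units and viewpoints of a comparison, at a threshold of 0.05. The 3 CD71+ groups were fitted together. DESeq2 1.42.0, which the study used, was an alternative. For scaled sums, exact permutation tests (two-sided) were used. Scripts were tested on simulated data. Python 3.11.15, numpy 2.4.6 and pandas 2.3.3 were used.

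The region, gene lists and tests were chosen with earlier results of these data known. Of the protein-coding genes, Nsg2 and the 4 others with the most interactions per kb in WT Ter119+ libraries are given by sample, bins and fragments are named from the up to 3 smallest p-values past the threshold, and local peaks are bins above both neighbours in every library of a capture. The contrasts between viewpoints, their order on other totals and the cis total without the downstream window were added after the data were seen. Replicates differed by more than counting noise (chi-square per degree of freedom 1.42 to 2.27), so each library counted as 1. Intervals and floors cover counting error or the spread between libraries only, and ligation products carry no molecular identifiers beyond the removal of duplicates.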

Additional observations from a re-analysis of the deposited data

Results flagged for a closer look

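Of 42 sets of 4 CD71+ libraries examined, 4 held a library far from the other 3, where chance gives about 1 in 20. From HS38 the whole region in aP+G replicate 2 stood at 11388 interactions per 100,000 against 12155 to 12197 in the others, a gap of 0.948 of the group's range, and in aPonly replicate 3 at 13816 against 11917 to 12089 (0.909). The upstream to downstream log2 ratio from HS38 was 0.92 in aP+G replicate 4 against 0.75 to 0.77 (0.868). Stc2 from R2 took 109 in aP+G replicate 4 against 54.3 to 57.9 (0.934). The groups of 3 libraries were not examined in this way.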

How the results depend on the processing

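For QuadDel against WT, the main settings called 1 viewpoint for the whole region and 2 bins. Viewpoints called were 0 with TMM factors, DESeq2 size factors or only fragments inside the exclusion zone left out, 2 with the DESeq2 Wald test, the replicate block or the highest fragment of each unit left out, 3 on the cis total outside the TAD (HS38, Hba-1 and Hba-2, not R2), and 0 to 1 without 1 library. Bins called were 5 with TMM factors or on the cis total outside the TAD, 4 with DESeq2 size factors, 7 at a mean count of at least 20 or in 10 kb bins, 1 on the cis total without the downstream window, with the DESeq2 Wald test, under the zone alternative, without the highest fragment, at a mean count of at least 1 or at an adjusted p under 0.01, and 1 to 3 without 1 library. The genes called were 1 at a mean count of at least 20 and 0 to 2 without 1 library (2 without QuadDel replicate 3), and the fragments called were 1 at a mean count of at least 1 and 0 to 1 without 1 library (1 without WT replicate 3). Deviations of same-numbered libraries correlated weakly (0.012 to 0.075 in the Ter119+ capture, -0.043 to 0.205 in the CD71+ capture). The medians were 0.039 and 0.045, against -0.021 and -0.028 for libraries of different number (-0.082 to 0.052 and -0.25 to 0.21). With 3 and 10 same-numbered pairs, these values cannot decide whether the numbers pair the libraries. The replicate block left the bins called at 2 and HS38 joined R2 (adjusted p = 0.000254). Signs turned for the whole region from HS39 (-0.15, cis total outside the TAD, and -0.034 to 0.068 without 1 library), from R1 (0.083, zone alternative), and for the bin next to the TAD from HS39 (-0.000428 with TMM factors, -0.083 on the cis total outside the TAD). For aP+G against WT aYFP they turned from HS38 (0.042, 0.028 and 0.032 with TMM factors, DESeq2 size factors and the cis total outside the TAD; -0.021 to 0.025 without 1 library), from R2 (0.055, 0.071 and 0.027; -0.10 to 0.058) and from R1 (-0.043 to 0.089 without 1 library), for aP+G against aPonly from R1 (0.0061 with TMM factors), and for aPonly against WT aYFP from HS38 (-0.0095 to 0.085 without 1 library). The ratio turned from HS38 (-0.069 to 0.0039) and R1 (-0.0053 to 0.18) for aP+G and from R1 (-0.053 to 0.13) for aPonly against WT aYFP without 1 library, and the viewpoints whose ratios did not overlap were 0 to 1, 0 to 1 and 0 to 2 for aP+G against WT aYFP, aP+G against aPonly and aPonly against WT aYFP. For the contrasts between viewpoints, bins called were 11 in place of 19 for Hba-1 against HS38 with TMM factors or the cis total outside the TAD, 12 in place of 21 for R2 against HS38 in the CD71+ capture with TMM factors, and 5 to 7 in place of 8 for R1 against HS38 in the Ter119+ capture without 1 library. The causes were not tested. Leaving out the highest fragment was not run for the tests of single fragments. Leaving aside the settings without 1 library, 185 combinations of result and setting gave a count equal or close to the main one. In 23 the count moved farther. Depth limits single fragments and genes such as Stc2 and Bod1, with counts of at most 15 in the Ter119+ capture.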
